A study of Mus musculus with 7 samples.

Results

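Glycolysis and the pentose phosphate pathway are followed here through 36 genes that encode glucose and lactate transporters, glycolytic enzymes and their regulators, the entry of pyruvate into mitochondria, glycogen and gluconeogenic enzymes, and pentose phosphate enzymes. They were chosen as a list of gene symbols and matched by exact name to the gene table, where they make up 36 of 23361 genes. The RNASeq data come from macrophages of wild-type BALB/cJ mice. They were sorted from the bridge of regenerating tissue in the left sciatic nerve, which had been transected and repaired within a conduit. The groups were cells taken at day 5 (3 libraries), day 14 (2 libraries) and day 28 (2 libraries), and no uninjured nerve is among them. In every group the cells were gated as Lin- F4/80+ CD14+ CD11b+ CD16/32+, and polyA+ RNA was sequenced single-end after NEBNext Ultra library preparation. It was not established if each library holds cells of 1 mouse or of several pooled mice, so the p-values measure the spread between these libraries only. The fragments assigned to genes, each a single read, numbered 26167372, 21509710 and 21889611 in day 5 replicates 1, 2 and 3. Day 14 replicates 1 and 2 had 18027190 and 20822892, and day 28 replicates 1 and 2 had 35247116 and 18101976. A gene with at most 3 fragments in a library was treated as not detected there, a floor that covers counting error only. All 36 genes passed the expression filter that kept 12858 genes for testing, with the lowest value in any library at 19 fragments (Fbp1).

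Glycolysis splits glucose into pyruvate in the cytosol with a small gain of ATP, and lactate dehydrogenase then turns pyruvate into lactate, which leaves the cell together with a proton. The pentose phosphate pathway branches off after the hexokinase step, yields NADPH for biosynthesis and for the oxidative burst, and returns its sugars to glycolysis through transaldolase and transketolase. Macrophages that meet inflammatory signals or low oxygen are known to raise glycolysis, and many of these genes are known targets of the hypoxia-inducible factor HIF-1.

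Between day 5 and day 28, transcripts of the lactate exporter Slc16a3, the glucose importer Slc2a1, a series of glycolytic enzymes (Pfkl, Tpi1, Pgk1, Eno1, Eno2 and Ldha), the pyruvate dehydrogenase kinase Pdk1 and the glycogen synthase Gys1 fell. Their log2 fold changes ran from -1.23 for Slc16a3 to -0.46 for Ldha. Transcripts of Ldhb (the other lactate dehydrogenase subunit), Pfkfb4 (a regulator of phosphofructokinase), Taldo1 (transaldolase) and Fbp1 (a gluconeogenic phosphatase) rose, with log2 fold changes from 0.62 for Taldo1 to 1.59 for Fbp1. In all, 14 of the 36 genes (38.9%) passed the test at a Benjamini-Hochberg adjusted p under 0.05 in edgeR's quasi-likelihood fit of all 7 libraries, against 15.2% of the 12858 genes tested. By direction, 10 were lower at day 28 (7.51% of all genes tested) and 4 were higher (7.74% of all genes tested). The median log2 fold change was -0.09 over the 36 genes and 0.033 over all genes tested. On the FPKM scale, which adjusts fragments for transcript length and library size, both day 28 libraries lay below all day 5 libraries for 17 of the 36 genes (25.6% of all genes tested). They lay above for 11 (26.0% of all genes tested) and overlapped for 8. The number of genes passing was 5, 7 and 5 without day 5 replicates 1, 2 and 3 (6.42%, 7.17% and 7.57% of all genes tested in these fits). It was 20 without day 14 replicate 1 or 2 (20.6% and 20.5% of all genes tested), and 4 and 5 without day 28 replicates 1 and 2 (3.4% and 7.58% of all genes tested). Slc16a3, Gys1, Ldhb and Tpi1 passed in all 7 of these fits and Pfkl in 6 (not without day 28 replicate 1), but the other 9 did not pass in several. Each of these 9 was lost without day 5 replicate 1, day 5 replicate 3, day 28 replicate 1 or day 28 replicate 2, and 7 of them (all but Fbp1 and Pfkfb4) without day 5 replicate 2.

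Between day 5 and day 14, Slc16a3, Gys1 and Tpi1 fell and Ldhb rose. These were 4 of the 36 genes (11.1%), against 4.78% of all genes tested with edgeR, with 3 lower (1.94% of all genes tested) and 1 higher (2.84% of all genes tested). The median log2 fold change was -0.06 over the 36 genes and 0.027 over all genes tested. Both day 14 libraries lay below all day 5 libraries in FPKM for 14 of the 36 genes (21.4% of all genes tested) and above for 7 (21.9% of all genes tested). Both comparisons with day 5 use the same 3 day 5 libraries, so they are not independent of each other. The number of genes passing between days 5 and 14 was 15 with DESeq2 (10.6% of all genes tested) and 13 with no expression filter (8.26%), and in both cases the 4 genes named here were among them. It was 2 with limma on log2(FPKM + 1) values (1.96% of all genes tested) and 2 in a fit of the 2 time points alone (2.52%). Leaving out day 5 replicate 1, 2 or 3 gave 0, 1 (Slc16a3) and 0 genes (0.493%, 0.83% and 0.407% of all genes tested). Leaving out day 14 replicate 1 or 2 gave 10 and 5 (13% and 2.13%), with Ldhb and Tpi1 lost without replicate 2, and leaving out day 28 replicate 1 or 2 gave 2 (Slc16a3 and Gys1) in each case (2.7% and 2.41%).

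Between day 14 and day 28, 0 of the 36 genes passed edgeR's test (0.0622% of all genes tested did), 3 had an unadjusted p under 0.05 (Pfkl, Slc16a3 and Pfkp, beside 12.2% of all genes tested), and DESeq2 also called 0 (2.58% of all genes tested). The lowest Benjamini-Hochberg adjusted p in edgeR was 0.368, for Pfkl. The median log2 fold change was -0.01 over the 36 genes and 0.009 over all genes tested. Without day 14 replicate 2, 3 genes passed (Pfkfb3 and Eno2 lower and Pgd higher at day 28, with 4.7% of all genes tested passing), and without each of the other 6 libraries 0 did.

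**Figure D1:**
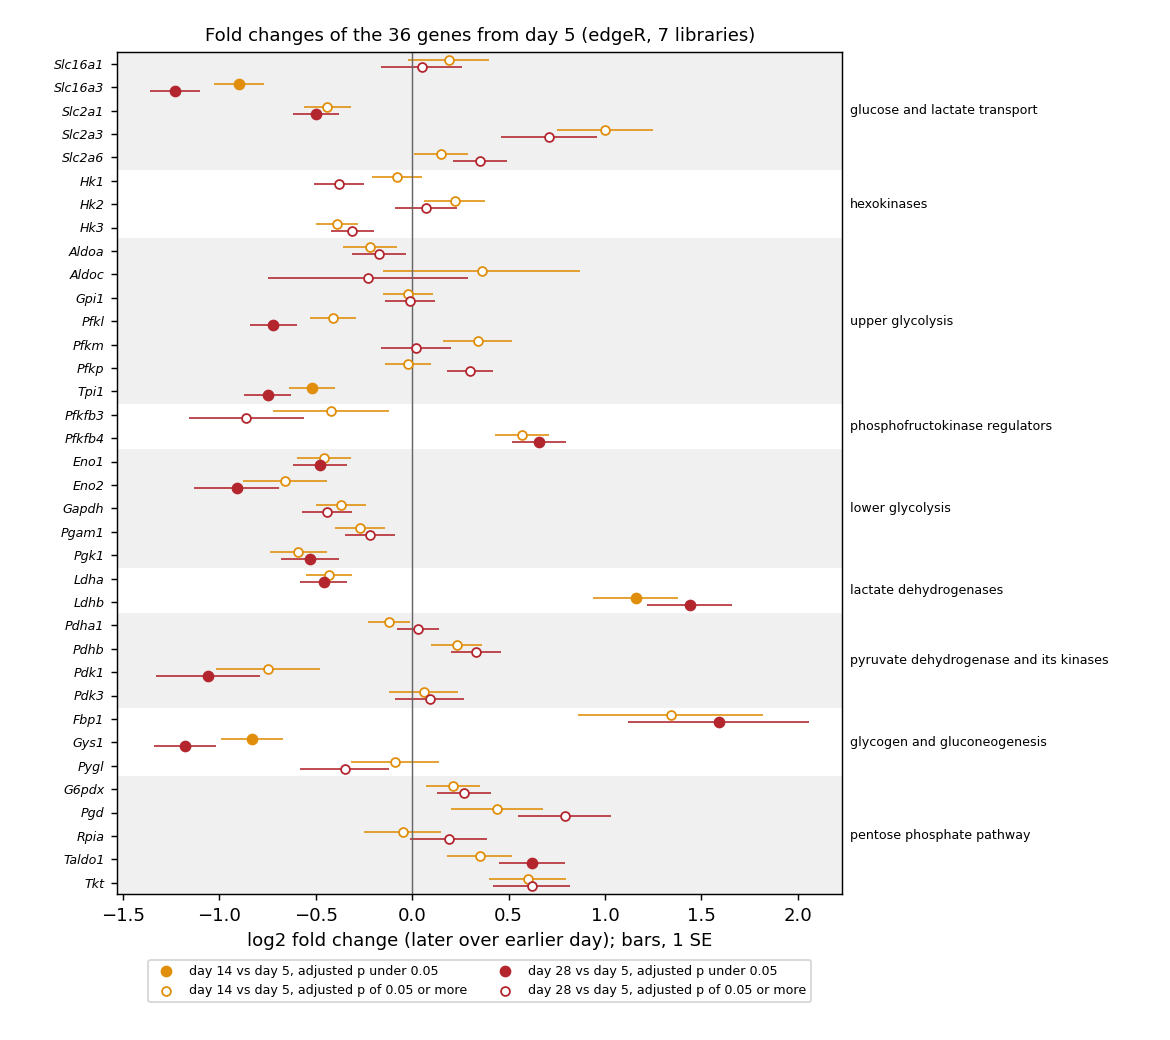
Log2 fold change of each of the 36 genes at day 14 (orange) and day 28 (red) over day 5, grouped by role, with bars of 1 SE from edgeR's fit of 7 libraries and filled circles for an adjusted p under 0.05. The filled circles are 4 for day 14 and 14 for day 28, and those of day 28 run from -1.23 (Slc16a3) to 1.59 (Fbp1).

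The plot of fold changes shows the genes by role, with day 14 and day 28 side by side. In lower glycolysis all 5 genes lay left of 0 on both days, with medians of -0.46 at day 14 and -0.48 at day 28. In the pentose phosphate pathway the day 28 circles of all 5 genes lay right of 0, with a median of 0.62, and 1 of them (Taldo1) was filled. In each of the other roles, genes lay on both sides of 0 on both days. Their medians ran from -0.09 (glycogen and gluconeogenesis) to 0.37 (lactate dehydrogenases) at day 14. At day 28 they ran from -0.35 to 0.49, for the same roles. The SE was derived from the F statistic and is approximate.

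The promoters of the 4 genes that passed in both comparisons with day 5 are shown, of which Slc16a3, Gys1 and Tpi1 fell and Ldhb rose. The sequences run 5′ to 3′ on the strand of the gene, from 250 bases before to 50 bases after a transcription start, and come from RefSeq on build GRCm38.p6. Capitals mark the letters ACGTG or GCGTG on either strand, the core of the element that HIF-1 is known to bind. Slc16a3 is shown from chr11:120948817-120949116 (forward strand), Gys1 from chr7:45434589-45434888 (forward strand), Tpi1 from chr6:124814109-124814408 (reverse strand) and Ldhb from chr6:142507908-142508207 (reverse strand).
Slc16a3: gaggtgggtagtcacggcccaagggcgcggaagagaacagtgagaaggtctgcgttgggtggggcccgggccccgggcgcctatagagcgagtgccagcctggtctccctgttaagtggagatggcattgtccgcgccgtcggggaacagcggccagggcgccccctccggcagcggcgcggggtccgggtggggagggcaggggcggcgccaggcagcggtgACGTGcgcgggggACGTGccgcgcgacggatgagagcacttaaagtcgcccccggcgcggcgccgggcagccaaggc
Gys1: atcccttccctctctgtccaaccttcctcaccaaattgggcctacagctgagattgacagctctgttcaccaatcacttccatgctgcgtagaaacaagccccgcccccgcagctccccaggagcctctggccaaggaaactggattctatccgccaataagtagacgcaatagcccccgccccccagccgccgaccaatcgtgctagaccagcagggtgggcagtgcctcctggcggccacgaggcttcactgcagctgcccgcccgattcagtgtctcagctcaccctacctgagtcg
Tpi1: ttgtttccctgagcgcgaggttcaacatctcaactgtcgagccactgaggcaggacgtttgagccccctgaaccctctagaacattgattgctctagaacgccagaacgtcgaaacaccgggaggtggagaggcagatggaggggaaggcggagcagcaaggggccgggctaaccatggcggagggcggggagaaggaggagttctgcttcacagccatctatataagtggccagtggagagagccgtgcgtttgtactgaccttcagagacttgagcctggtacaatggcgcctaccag
Ldhb: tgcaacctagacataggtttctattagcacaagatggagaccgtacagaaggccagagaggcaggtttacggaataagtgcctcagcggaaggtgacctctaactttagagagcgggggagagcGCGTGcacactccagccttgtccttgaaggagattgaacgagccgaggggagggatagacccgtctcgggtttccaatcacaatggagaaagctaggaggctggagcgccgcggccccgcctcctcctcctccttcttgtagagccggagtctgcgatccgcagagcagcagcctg

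In these windows, counting both strands, ACGTG occurred 2 times in the Slc16a3 promoter and 0 times in those of Gys1, Tpi1 and Ldhb, and GCGTG occurred 1 time in the Ldhb promoter and 0 times in the others. Of the 36 genes, 35 matched the promoter table, with 48 promoters between them, since some genes have several starts. Slc2a3 had no entry. Searched on both strands, ACGTG was found in 21 of the 48 promoters (43.8%), against 19.6% of all 32851 promoters of 300 bases. GCGTG was found in 30 of the 48 (62.5%), against 32.4% of all promoters. At least 1 of these 2 cores was found in 38 of the 48 (79.2%), against 43.8% of all promoters. The E-box CACGTG, which MYC and related factors are known to bind and which contains ACGTG, was found in 4 of the 48 (8.33%, against 7.15% of all promoters). TGACNNNGC, the core of the antioxidant response element, was found in 7 of the 48 (14.6%, against 12.4% of all promoters), namely in promoters of Aldoa, Fbp1, G6pdx, Hk1, Pdhb, Pgd and Slc16a1. Among the 10 genes that were lower at day 28, 7 had ACGTG or GCGTG in at least 1 promoter, against 23 of the 25 other genes matched, and Tpi1, Gys1 and Eno2 had neither in this window. Of the 4 genes that were higher at day 28, Ldhb, Pfkfb4 and Taldo1 held GCGTG and Fbp1 neither core. A match describes letters in the window and is not evidence that a factor was bound. Both cores contain the letters CG, and the set of all promoters was not matched to the 48 for base content. Some windows of the same gene overlap, such as those of Eno1 that begin at 150236947 and 150236974, and each was counted.

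Glucose enters macrophages mainly through GLUT1, encoded by Slc2a1, and lactate leaves through MCT4, encoded by Slc16a3. Slc16a3 (ENSMUSG00000025161, chromosome 11, 120948480 to 120960868, forward strand of GRCm38, which is mm10) was expressed at 256.6, 233.2 and 259.3 FPKM at day 5, 123.6 and 143.1 FPKM at day 14 and 110.5 and 99.99 FPKM at day 28. The 3 days did not overlap, with day 5 highest and day 28 lowest. Slc16a3 fell from a mean of 249.7 ± 14.3 FPKM (SD, n = 3) on day 5 to 133.3 ± 13.8 FPKM (SD, n = 2) on day 14 (log2 fold change -0.90, SE 0.13, edgeR, Benjamini-Hochberg adjusted p = 0.0133). On day 28 the mean was 105.3 ± 7.46 FPKM (SD, n = 2), a log2 fold change of -1.23 from day 5 (SE 0.13, adjusted p = 0.00101 in edgeR by Benjamini-Hochberg). In bulk libraries such as these, fewer cells of a type and less RNA per cell cannot be told apart. Slc2a1 (ENSMUSG00000028645, chromosome 4, 119108711 to 119137983, forward strand) was expressed at 221.1, 206.6 and 223.4 FPKM at day 5, 159.5 and 157.7 FPKM at day 14 and 163.6 and 140.4 FPKM at day 28. All later libraries lay below all day 5 libraries, while days 14 and 28 overlapped. The day 28 difference from day 5 passed (log2 fold change -0.50, SE 0.12, edgeR, Benjamini-Hochberg adjusted p = 0.0239), and that of day 14 did not (log2 fold change -0.44, adjusted p = 0.0643). Basigin (Bsg), the chaperone that carries MCT4 to the cell surface, also fell between days 5 and 28 (log2 fold change -0.46, SE 0.11, edgeR, Benjamini-Hochberg adjusted p = 0.0232), from 222.5 ± 5.18 FPKM (SD, n = 3) to 159.8 ± 0.183 FPKM (SD, n = 2). Of the other members of this role, Slc2a6 (GLUT6) ranged from 37.3 to 59.5 FPKM, Slc16a1 (MCT1, a transporter for lactate and pyruvate) from 7.22 to 12.1 FPKM and Slc2a3 (GLUT3) from 1.29 to 3.41 FPKM over the 7 libraries. Slc2a3 lay higher in all later libraries than in all day 5 libraries, with log2 fold changes of 1.0 at day 14 and 0.71 at day 28. Neither passed in edgeR (Benjamini-Hochberg adjusted p = 0.0522 and 0.0831). DESeq2, and edgeR with no expression filter, called Slc2a3 higher and Slc2a1 lower at day 14 than at day 5. With no expression filter Slc2a3 was also called higher at day 28.

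Hexokinases phosphorylate glucose and so trap it in the cell. The most abundant of them by mean over the 7 libraries was Hk2, the inducible form (below Hk3 in day 5 replicate 3), at 87.2, 82.2 and 62.7 FPKM at day 5, 97.9 and 81.3 FPKM at day 14 and 80.5 and 80.6 FPKM at day 28. Its libraries overlapped between day 5 and both later days. Hk1 ranged from 26.3 to 40.8 FPKM and Hk3, the form typical of myeloid cells, from 49.6 to 71.0 FPKM. Hk3 was lower in all later libraries than in all day 5 libraries, and Hk1 was lower in both day 28 libraries than in all others. Of the 3 hexokinases, 0 passed edgeR's test in any comparison in the fit of all 7 libraries. An unadjusted p under 0.05 was seen for Hk1 and Hk3 between days 5 and 28 (edgeR, Benjamini-Hochberg adjusted p = 0.0747 and 0.0894), and for Hk3 between days 5 and 14. DESeq2 called Hk1 between days 5 and 28 and Hk3 between days 5 and 14. Hk1 also passed between days 5 and 28 in an edgeR fit of these 2 time points alone.

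In upper glycolysis, glucose phosphate is rearranged, phosphorylated again by phosphofructokinase and cleaved by aldolase, and triosephosphate isomerase interconverts the products. Tpi1 (ENSMUSG00000023456, chromosome 6, 124810586 to 124814296, reverse strand), which encodes the isomerase, was expressed at 438.7, 398.9 and 434.2 FPKM at day 5, 285.8 and 301.0 FPKM at day 14 and 263.7 and 236.3 FPKM at day 28. The days were separate and in descending order. Tpi1 fell between days 5 and 14 (log2 fold change -0.52, SE 0.12, edgeR, Benjamini-Hochberg adjusted p = 0.0415). It was also called lower at day 28 than at day 5 (log2 fold change -0.75, SE 0.12, edgeR, Benjamini-Hochberg adjusted p = 0.00499). Pfkl (ENSMUSG00000020277, chromosome 10, 77986947 to 78010083, reverse strand), the liver-type phosphofructokinase, was expressed at 65.7, 60.1 and 64.7 FPKM at day 5, 44.3 and 50.5 FPKM at day 14 and 36.9 and 39.4 FPKM at day 28. Again the days did not overlap, and the difference between days 5 and 28 passed (log2 fold change -0.72, SE 0.12, edgeR, Benjamini-Hochberg adjusted p = 0.00535), though not without day 28 replicate 1. Aldoa, the main aldolase and the most abundant gene of this role, was expressed at 788.6, 784.9 and 806.2 FPKM at day 5, 586.1 and 769.4 FPKM at day 14 and 747.6 and 650.5 FPKM at day 28. Each later library lay below all day 5 libraries, with day 14 replicate 2 and day 28 replicate 1 close to them, and Aldoa did not pass (log2 fold change -0.17 at day 28, edgeR, Benjamini-Hochberg adjusted p = 0.456). Gpi1, which encodes the isomerase between glucose and fructose phosphates, ranged from 156.1 to 198.5 FPKM, with day means of 180.4, 177.3 and 177.3 FPKM. Pfkp ranged from 32.9 to 45.6 FPKM and was higher in both day 28 libraries than in all others (log2 fold change 0.30 over day 5, edgeR, Benjamini-Hochberg adjusted p = 0.128). Pfkm and Aldoc were expressed at low levels, from 2.48 to 3.34 FPKM and from 0.883 to 3.65 FPKM.

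The bifunctional enzymes encoded by the Pfkfb genes set the level of fructose 2,6-bisphosphate, an activator of phosphofructokinase. Pfkfb4 (ENSMUSG00000025648, chromosome 9, 108991778 to 109032228, forward strand) was expressed at 11.7, 13.7 and 11.6 FPKM at day 5, 15.6 and 20.8 FPKM at day 14 and 20.04 and 18.5 FPKM at day 28. All later libraries were above all day 5 libraries, and Pfkfb4 rose between days 5 and 28 (log2 fold change 0.66, SE 0.14, edgeR, Benjamini-Hochberg adjusted p = 0.018). Pfkfb3, the more abundant of the pair and known to favour the kinase reaction, was expressed at 108.5, 101.3 and 74.4 FPKM at day 5, 98.7 and 42.9 FPKM at day 14 and 51.8 and 52.7 FPKM at day 28. Both day 28 libraries were below all day 5 libraries, and the day 14 libraries lay on either side of day 28, with replicate 1 within the day 5 range and replicate 2 lowest of all 7. Pfkfb3 did not pass between days 5 and 28 (log2 fold change -0.86, SE 0.30, edgeR, Benjamini-Hochberg adjusted p = 0.0854), but was called lower there with DESeq2. With a fit that left out a single day 14 library, whichever of the 2 it was, Pfkfb3 was also called lower at day 28 than at day 5.

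Lower glycolysis recovers ATP and NADH on the way from triose phosphate to pyruvate. Gapdh, the most abundant gene of this role, was expressed at 980.7, 905.2 and 979.4 FPKM at day 5, 653.1 and 812.7 FPKM at day 14 and 723.7 and 670.8 FPKM at day 28. Each later library lay below all day 5 libraries, and the difference between days 5 and 28 fell just short of the threshold (log2 fold change -0.44, SE 0.13, edgeR, Benjamini-Hochberg adjusted p = 0.0552). DESeq2, and edgeR with either other library scaling (RLE size factors or the scaling by cuffdiff), called Gapdh lower at day 28. Pgk1 (ENSMUSG00000062070, chromosome X, 106187100 to 106203699, forward strand), phosphoglycerate kinase, was expressed at 398.5, 341.4 and 354.6 FPKM at day 5, 226.6 and 255.2 FPKM at day 14 and 282.6 and 217.9 FPKM at day 28. The later libraries were all lower than those of day 5 and days 14 and 28 overlapped, and Pgk1 fell between days 5 and 28 (log2 fold change -0.53, SE 0.15, edgeR, Benjamini-Hochberg adjusted p = 0.0423). Eno1 (ENSMUSG00000063524, chromosome 4, 150236721 to 150248879, forward strand), the main enolase, was expressed at 430.2, 418.8 and 451.1 FPKM at day 5, 271.9 and 354.3 FPKM at day 14 and 318.6 and 295.1 FPKM at day 28. It too lay below day 5 in all later libraries and fell between days 5 and 28 (log2 fold change -0.48, SE 0.14, edgeR, Benjamini-Hochberg adjusted p = 0.047). Eno2 (ENSMUSG00000004267, chromosome 6, 124760053 to 124769673, reverse strand), best known as the neuronal enolase, was expressed at 95.7, 84.8 and 79.2 FPKM at day 5, 70.3 and 38.8 FPKM at day 14 and 46.9 and 44.4 FPKM at day 28. Its day 28 libraries lay between the 2 day 14 libraries and under all of day 5, a fall that passed the test (log2 fold change -0.91, SE 0.22, edgeR, Benjamini-Hochberg adjusted p = 0.0239). Pgam1, phosphoglycerate mutase, ranged from 349.9 to 476.7 FPKM and did not pass, though all later libraries were below all day 5 libraries (log2 fold change -0.22 at day 28, edgeR, Benjamini-Hochberg adjusted p = 0.288). Pkm, the pyruvate kinase of macrophages, stood outside the list of 36 and had a mean of 976.3 ± 29.7 FPKM (SD, n = 3) on day 5 and of 743.3 ± 24.7 FPKM (SD, n = 2) on day 28 (log2 fold change -0.38, SE 0.12, edgeR, Benjamini-Hochberg adjusted p = 0.0592). Genes of this role, Aldoa, Tpi1 and Ldha have processed pseudogenes or near-identical copies in the mouse genome, and how reads mapping to several places were shared was not stated, so their absolute levels are uncertain. Gm5506, an enolase copy, fell along with Eno1 (log2 fold change -0.56, SE 0.12, edgeR, Benjamini-Hochberg adjusted p = 0.0177 between days 5 and 28).

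**Figure D2:**
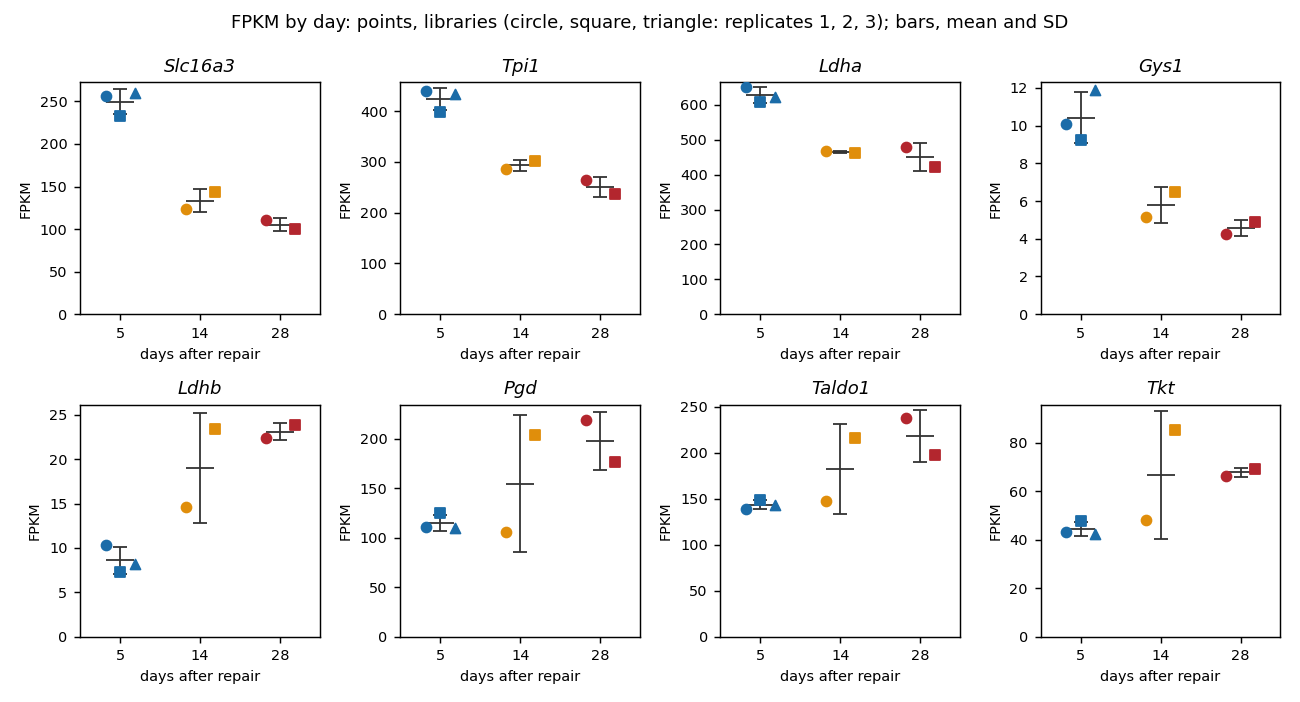
FPKM of 8 genes against days after repair, each panel with its own axis from 0, with points for the libraries and bars for the mean and SD (n = 3 at day 5, n = 2 at days 14 and 28). Slc16a3 goes from a mean of 249.7 to 105.3 FPKM and Ldhb from 8.56 to 23.1 FPKM, and the day 14 points of Pgd lie apart at 105.6 and 203.6 FPKM.

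Lactate dehydrogenase is a tetramer of subunits encoded by Ldha, which favours lactate formation, and Ldhb, which favours the reverse reaction. Ldha (ENSMUSG00000063229, chromosome 7, 46841475 to 46855627, forward strand) was expressed at 652.9, 609.8 and 622.0 FPKM at day 5, 466.7 and 462.7 FPKM at day 14 and 479.3 and 423.4 FPKM at day 28. Ldhb (ENSMUSG00000030246, chromosome 6, 142490249 to 142507957, reverse strand) was expressed at 10.3, 7.27 and 8.17 FPKM at day 5, 14.6 and 23.4 FPKM at day 14 and 22.4 and 23.8 FPKM at day 28. The subunits moved in opposite directions, with all later libraries below day 5 for Ldha and above day 5 for Ldhb. Ldha fell between days 5 and 28 (log2 fold change -0.46, SE 0.12, edgeR, Benjamini-Hochberg adjusted p = 0.0291). Ldhb rose between days 5 and 14 (log2 fold change 1.16, SE 0.22, edgeR, Benjamini-Hochberg adjusted p = 0.0253). Its rise from day 5 to day 28 passed as well (log2 fold change 1.44, SE 0.22, edgeR, Benjamini-Hochberg adjusted p = 0.00418). In the panels of FPKM by day, the points of Ldha at days 14 and 28 overlap and lie below those of day 5, while the day 14 points of Ldhb lie apart, with replicate 2 among the day 28 values. As a share of the summed FPKM of both subunits, Ldhb made up 1.55%, 1.18% and 1.30% at day 5, 3.04% and 4.81% at day 14 and 4.46% and 5.31% at day 28, with Ldha at 94.7% or more of the sum in each library.

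Pyruvate enters the tricarboxylic acid cycle through pyruvate dehydrogenase, which the Pdk kinases inactivate. Pdk1 (ENSMUSG00000006494, chromosome 2, 71873224 to 71903858, forward strand) was expressed at 5.75, 5.49 and 5.97 FPKM at day 5, 2.33 and 4.44 FPKM at day 14 and 3.29 and 2.13 FPKM at day 28. The later libraries were all below day 5, and Pdk1 fell between days 5 and 28 (log2 fold change -1.06, SE 0.27, edgeR, Benjamini-Hochberg adjusted p = 0.0309). Pdk3 ranged from 7.77 to 10.8 FPKM with overlapping days. Pdhb, a subunit of the dehydrogenase itself and the most abundant gene of this role, was expressed at 35.8, 29.4 and 33.2 FPKM at day 5, 35.8 and 40.6 FPKM at day 14 and 44.1 and 37.4 FPKM at day 28. Both day 28 libraries were above all day 5 libraries, but Pdhb did not pass (log2 fold change 0.33, SE 0.13, edgeR, Benjamini-Hochberg adjusted p = 0.123). Pdha1, the alpha subunit of the same enzyme, ranged from 23.4 to 28.5 FPKM, with log2 fold changes of -0.12 at day 14 and 0.03 at day 28 over day 5.

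Among the genes of glycogen and gluconeogenesis, Gys1 (ENSMUSG00000003865, chromosome 7, 45434844 to 45456619, forward strand), the glycogen synthase of most tissues outside liver, was expressed at 10.1, 9.24 and 11.9 FPKM at day 5, 5.13 and 6.46 FPKM at day 14 and 4.25 and 4.88 FPKM at day 28. The 3 days were separate and in descending order. Gys1 fell between days 5 and 14 (log2 fold change -0.83, SE 0.16, edgeR, Benjamini-Hochberg adjusted p = 0.0275), and its fall from day 5 to day 28 passed too (log2 fold change -1.18, SE 0.16, adjusted p = 0.00302). Fbp1 (ENSMUSG00000069805, chromosome 13, 62864753 to 62888282, reverse strand), fructose bisphosphatase, which opposes phosphofructokinase, was expressed at 0.61, 1.94 and 0.678 FPKM at day 5, 2.55 and 2.82 FPKM at day 14 and 3.00 and 3.41 FPKM at day 28. All later libraries were above all day 5 libraries, but day 5 replicate 2 stood nearer to day 14 than to the other day 5 libraries. The difference between days 5 and 28 passed narrowly (log2 fold change 1.59, SE 0.47, edgeR, Benjamini-Hochberg adjusted p = 0.0498), and with either other library scaling it did not pass. Without day 5 replicate 1, 2 or 3, the log2 fold change of Fbp1 was 1.31, 2.32 and 1.36. Pygl, a glycogen phosphorylase and the most abundant gene of this role, was expressed at 37.2, 40.9 and 38.9 FPKM at day 5, 24.5 and 48.3 FPKM at day 14 and 32.0 and 28.6 FPKM at day 28. The day 14 libraries were the lowest and the highest of the 7, and Pygl did not pass in the fit of all 7 libraries in any comparison. It did between days 5 and 28 without either day 14 library or in a fit of these 2 time points, and between days 5 and 14 without day 14 replicate 2.

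The pentose phosphate pathway has an oxidative arm, in which glucose 6-phosphate dehydrogenase (G6pdx) and phosphogluconate dehydrogenase (Pgd) make NADPH, and a non-oxidative arm with ribose 5-phosphate isomerase (Rpia), transketolase (Tkt) and transaldolase (Taldo1). Taldo1 (ENSMUSG00000025503, chromosome 7, 141392199 to 141402968, forward strand) was expressed at 138.4, 148.5 and 142.9 FPKM at day 5, 147.1 and 216.3 FPKM at day 14 and 237.9 and 197.6 FPKM at day 28. Day 28 lay above day 5, and of the day 14 libraries replicate 1 was within the day 5 range and replicate 2 within the day 28 range. Taldo1 rose between days 5 and 28 (log2 fold change 0.62, SE 0.17, edgeR, Benjamini-Hochberg adjusted p = 0.0362). Pgd was expressed at 111.3, 124.7 and 109.6 FPKM at day 5, 105.6 and 203.6 FPKM at day 14 and 218.8 and 176.8 FPKM at day 28. Tkt was expressed at 43.2, 47.8 and 42.4 FPKM at day 5, 48.1 and 85.4 FPKM at day 14 and 66.5 and 69.1 FPKM at day 28. Both were higher in the day 28 libraries than in all day 5 libraries, and neither passed in edgeR (log2 fold change 0.79, SE 0.24, Benjamini-Hochberg adjusted p = 0.0512 for Pgd, and 0.62, SE 0.20, adjusted p = 0.0698 for Tkt). DESeq2 called both higher at day 28 than at day 5. G6pdx ranged from 42.6 to 59.1 FPKM and Rpia from 6.89 to 10.5 FPKM, with log2 fold changes of 0.27 and 0.19 at day 28 that did not pass. Summed over these 5 genes, FPKM was 344.8, 377.3 and 349.0 at day 5, 352.4 and 574.9 at day 14 and 588.7 and 505.9 at day 28. The sum was 0.62 higher on the log2 scale at day 28 than at day 5 (0.63 after rescaling by TMM, edgeR's library normalization), a description to which no test was applied.

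The 18 glycolytic enzymes from hexokinase to lactate dehydrogenase, Pkm included, summed to 5735.1, 5435.2 and 5646.9 FPKM at day 5, 4107.9 and 4695.3 FPKM at day 14 and 4513.6 and 4069.5 FPKM at day 28. All later libraries were below all day 5 libraries, and the mean at day 28 stood at -0.39 on the log2 scale relative to day 5 (-0.37 after rescaling by TMM). The sum amounted to 0.967%, 0.975% and 1.04% of all FPKM at day 5, 0.738% and 0.904% at day 14 and 0.875% and 0.794% at day 28. Gapdh, Pkm, Aldoa and Ldha were the most abundant contributors, with means over all 7 libraries of 817.9, 853.3, 733.3 and 531.0 FPKM.

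**Figure D3:**
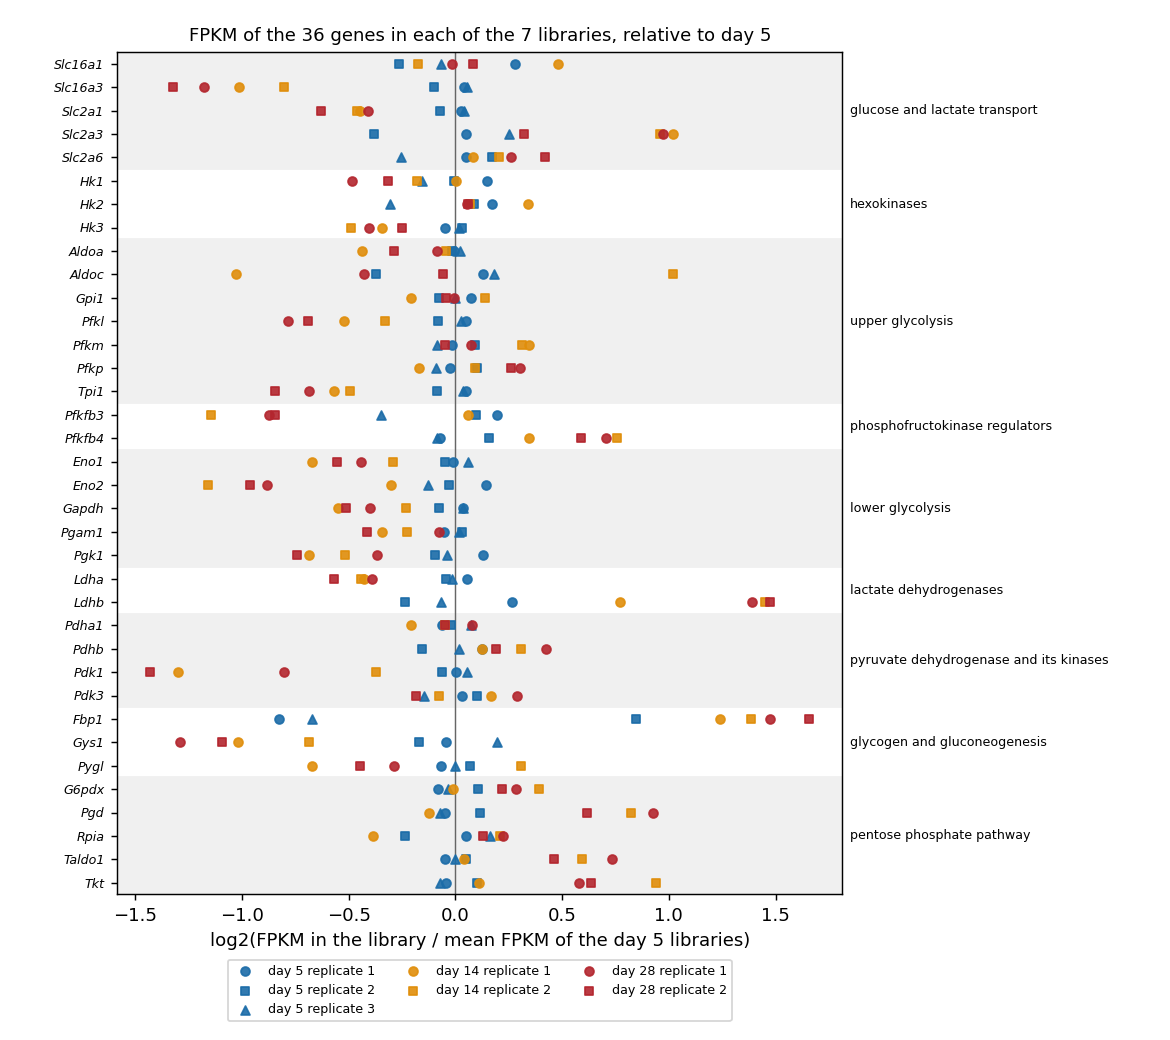
FPKM of each of the 36 genes in each of the 7 libraries, as log2 of its ratio to the mean of the day 5 libraries, grouped by role, with colour for the day and shape for the replicate. For Slc16a3 and Gys1 the orange and red points lie left of every blue point, for Ldhb right of every blue point, and for the 5 pentose phosphate genes the orange circle (day 14 replicate 1) lies left of the orange square (day 14 replicate 2).

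The 2 day 14 libraries differed from each other in several of these genes, as the plot of all libraries shows. All 5 pentose phosphate genes were higher in replicate 2, with log2 ratios of replicate 2 to replicate 1 from 0.41 (G6pdx) to 0.95 (Pgd). Aldoc (2.05), Pygl (0.98), Pdk1 (0.93) and Ldhb (0.68) were also higher in replicate 2 by more than 0.5, and Pfkfb3 (-1.20), Eno2 (-0.86) and Slc16a1 (-0.66) were higher in replicate 1. Slc2a1, Ldha and Tpi1 differed little between these libraries (log2 ratios -0.02, -0.01 and 0.07). Over the 36 genes, 11 (30.6%) differed by more than 0.5 on the log2 scale, against 25.9% of all genes tested, and the median absolute log2 ratio was 0.29 against 0.26, each computed on FPKM + 0.1. Day 14 replicate 1 also held higher sums of fibroblast markers (223.1 against 81.2 FPKM) and erythroid markers (59.6 against 8.28 FPKM) than replicate 2, although the sort was set to exclude cells with Thy1.2 or Ter119. Of the Schwann cell markers, Pmp22 was higher in replicate 1 (267.1 against 138.7 FPKM) and Mbp in replicate 2 (19.8 against 12.2 FPKM). The part of such cells in the differences between these libraries was not tested.

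The bars of isozyme shares cover the isozymes among the 36 genes, so that expressed relatives such as Gm5506, Eno3 and Pdk2 are not in the sums. Pfkl made up 62.8%, 58.5% and 63.5% of the summed phosphofructokinase FPKM at day 5, 55.0% and 54.2% at day 14 and 43.3% and 45.7% at day 28. Pfkp made up 34.8%, 38.7% and 34.1%, then 40.9% and 42.3%, then 53.5% and 51.4%. Pfkp was thus the larger share in both day 28 libraries and Pfkl in all 5 earlier libraries. Slc2a1 went from 82.4% ± 2.49 (SD, n = 3) of the 3 listed glucose transporters at day 5 to 71.9% ± 3.39 (SD, n = 2) at day 28, with Slc2a6 going from 16.9% ± 2.62 to 26.8% ± 3.72. Pdk1 went from 39.4% ± 3.11 (SD, n = 3) of the sum with Pdk3 to 22.4% ± 1.34 (SD, n = 2). Slc16a1 went from 3.34% ± 0.507 (SD, n = 3) of the sum with Slc16a3 to 7.80% ± 0.846 (SD, n = 2), although its own day means, 8.66 ± 1.66 and 8.88 ± 0.416 FPKM, were close. Hk2 went from 41.9% ± 3.64 (SD, n = 3) of the 3 listed hexokinases to 49.2% ± 1.94 (SD, n = 2) and Eno1 from 83.3% ± 1.63 to 87.1% ± 0.169 of the sum with Eno2, while Aldoa remained at 99.5% to 99.8% of the sum with Aldoc in each library. In each of these families except the aldolases, the shares named here did not overlap between the day 5 and day 28 libraries. The share of Hk3 did overlap (34.4%, 37.4% and 42.3% at day 5, 33.0% and 34.6% at day 28). In FPKM, 26.0% of all genes tested were higher and 25.6% lower at day 28 without overlap. The shares within a family depend on each other, so they are not separate observations. Shares are descriptions and were not tested.

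**Figure D4:**
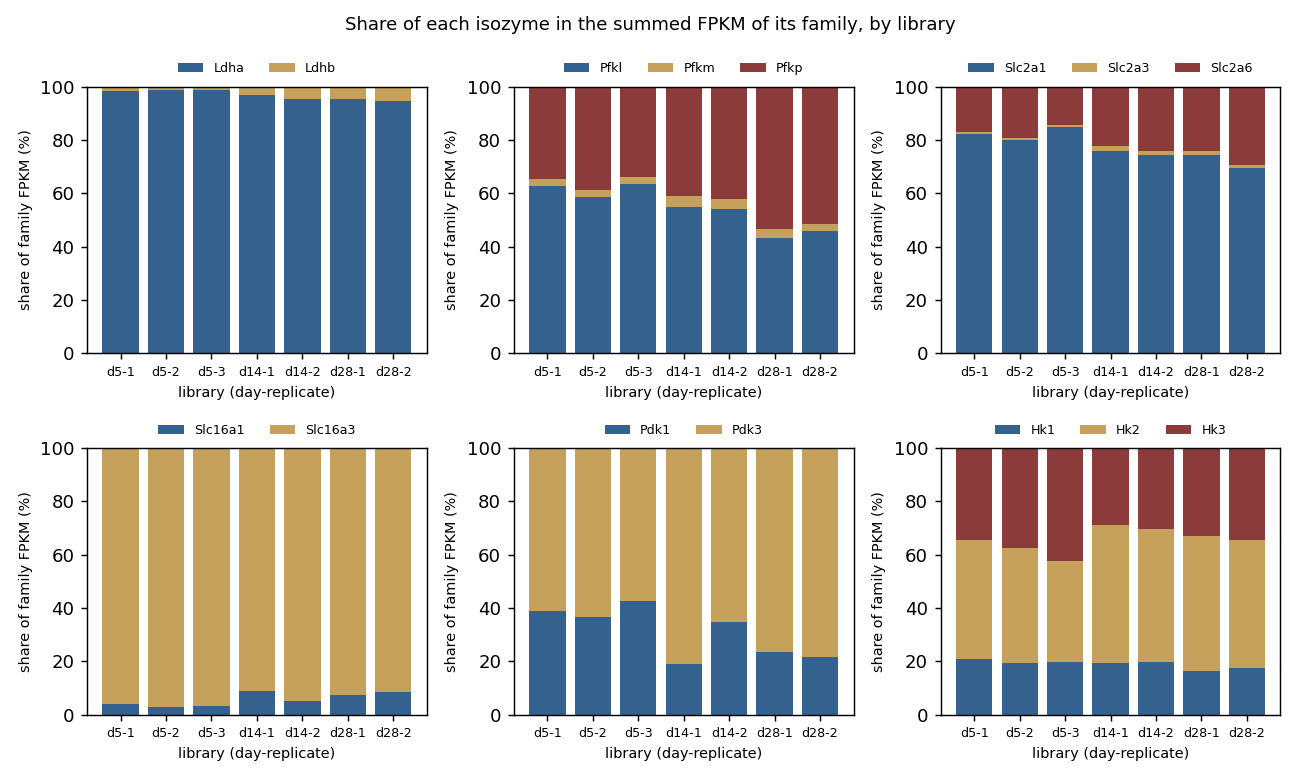
Share of each isozyme in the summed FPKM of those of its family among the 36 genes (percent, stacked to 100) in each of the 7 libraries, labelled by day and replicate, for 6 families. Ldhb goes from 1.18% to 1.55% in the day 5 libraries to 4.46% and 5.31% in the day 28 libraries, and Pfkl from 58.5% to 63.5% down to 43.3% and 45.7%.

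Other genes of the same pathways were read out as lists. Their counts stand beside 4.78% of all genes tested passing in edgeR between days 5 and 14 and 15.2% between days 5 and 28. At an unadjusted p under 0.05 in edgeR these shares were 24% and 31.5%, and with DESeq2 they were 10.6% and 19.3%. Of 13 further glycolytic enzymes tested (20 in the table), 0 passed in edgeR between days 5 and 14 (5 at an unadjusted p under 0.05, 3 with DESeq2) and 2 (15.4%) were lower at day 28 than at day 5, a share near that of all genes, with list medians of 0.03 and 0.10. These were Gm5506 and Pgm2, which interconverts sugar phosphates (log2 fold change -0.97, SE 0.16, edgeR, Benjamini-Hochberg adjusted p = 0.00557). Of 9 further pentose phosphate genes tested, 0 passed in edgeR at day 14 (2 at an unadjusted p under 0.05, 0 with DESeq2) and 1 was higher at day 28, with medians of 0.12 and 0.23. This was Shpk, which encodes a kinase that phosphorylates the sugar sedoheptulose, at 0.779, 0.64 and 0.654 FPKM at day 5, 1.31 and 1.19 FPKM at day 14 and 1.40 and 1.45 FPKM at day 28 (log2 fold change 1.05, SE 0.29, edgeR, Benjamini-Hochberg adjusted p = 0.0378). Its later libraries were all above day 5, at a low level throughout. Pgls, the lactonase between G6pdx and Pgd, ranged from 55.4 to 73.8 FPKM and did not pass (log2 fold change -0.16 at day 28). Of 10 further genes for pyruvate entry, 0 passed in edgeR at day 14 (1 at an unadjusted p under 0.05, 1 with DESeq2) and 0 at day 28 (0 and 0), with medians of 0.13 and 0.17. Among them were the mitochondrial pyruvate carrier subunits Mpc1 (24 to 40.01 FPKM) and Mpc2 (36.9 to 47.4 FPKM). Of 24 tricarboxylic acid cycle genes, 1 was lower at day 14 and at day 28 than at day 5 (Irg1, which makes itaconate from a cycle intermediate, log2 fold changes -0.90 and -1.34). Another was higher at day 28 (Idh3g, an isocitrate dehydrogenase subunit, log2 fold change 0.41), and the list medians were 0.12 and 0.15. Of 16 further glycogen genes, 1 was higher at day 14 (Gyg, glycogenin, the primer of glycogen, log2 fold change 0.53). At day 28, 2 were higher (Gyg, log2 fold change 0.47, and Stbd1, a glycogen-binding protein, 1.87), and the medians were 0.07 and -0.06. Of 3 further gluconeogenic genes, 1 was higher at day 14 (Pck2, the mitochondrial PEP carboxykinase, log2 fold change 1.0) and 1 at day 28 (G6pc3, a glucose phosphatase, 0.49), with medians of 0.53 and 0.49. Of 9 further hexose and lactate transport genes, 0 passed in edgeR at day 14 (2 at an unadjusted p under 0.05, 0 with DESeq2) and 1, Bsg, was lower at day 28, with medians of 0.03 and 0.02.

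Regulators of glucose use and targets of HIF-1 outside glycolysis were followed as well. Txnip (ENSMUSG00000038393, chromosome 3, 96557957 to 96561883, forward strand), which encodes a glucose-responsive protein that lowers glucose uptake, was expressed at 52.2, 52.7 and 42.9 FPKM at day 5, 101.6 and 125.3 FPKM at day 14 and 123.5 and 110.6 FPKM at day 28. All later libraries were above all day 5 libraries, and Txnip was called higher by day 14 (log2 fold change 1.21, SE 0.14, edgeR, Benjamini-Hochberg adjusted p = 0.00855) as well as by day 28 (log2 fold change 1.26, SE 0.14, adjusted p = 0.00141). Of the 20 regulators tested, 2 were higher at day 14 (Txnip and Myc) and 1 was lower (Egln3), beside 4.78% of all genes tested, and at day 28 2 were higher and 4 lower, beside 15.2%, with medians of -0.20 and -0.07. Those lower at day 28 were Epas1, which encodes HIF-2 alpha, and the oxygen-sensing prolyl hydroxylases Egln1, Egln2 and Egln3 (log2 fold changes -0.74, -0.62, -0.98 and -1.42). Hif1a itself was expressed at 141.4, 127.5 and 103.6 FPKM at day 5, 95.6 and 74.9 FPKM at day 14 and 93.7 and 70.5 FPKM at day 28. Its later libraries were all below day 5, and it did not pass (log2 fold change -0.58 at day 28, SE 0.18, edgeR, Benjamini-Hochberg adjusted p = 0.063). Of 22 HIF-1 targets outside glycolysis, 9 (40.9%) were lower at day 14 than at day 5 and 9 (40.9%) were lower at day 28, against 1.94% and 7.51% of all genes tested. Egln3 is counted in this list and among the regulators. The list medians were -0.45 and -0.48, beside 0.027 and 0.033 over all genes tested. Examples at day 28 were Mif, a cytokine, from 480.3 ± 44.2 FPKM (SD, n = 3) to 238.9 ± 5.47 FPKM (SD, n = 2), Bnip3, a mitophagy receptor, from 84.2 ± 6.40 to 35.9 ± 9.86 FPKM, and Plin2, a lipid droplet coat protein, from 1060.4 ± 121.0 to 554.5 ± 34.5 FPKM. Their log2 fold changes were -0.99, -1.21 and -0.92.

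Gapdh and Actb are common reference genes, and both belong to the reference set of the study's NanoString panel, with Ankrd27, Rictor and Tbp. Actb, cytoplasmic actin, was expressed at 4119.4, 4348.0 and 4438.5 FPKM at day 5, 3307.9 and 3583.1 FPKM at day 14 and 2150.3 and 3354.2 FPKM at day 28. The later libraries were all below day 5, and Actb fell between days 5 and 28 (log2 fold change -0.63, SE 0.18, edgeR, Benjamini-Hochberg adjusted p = 0.045), the 1 call by edgeR among the 5 reference genes there, while DESeq2 called 2 and 2 had an unadjusted p under 0.05. Between days 5 and 14, 0 of the 5 passed in edgeR, 1 had an unadjusted p under 0.05 and DESeq2 called 0. The shares of all genes tested beside these counts are those given with the lists of pathway genes. The list medians were -0.27 at day 14 and -0.19 at day 28. Relative to the mean log2 FPKM of the other 4 reference genes, Gapdh stood at 4.98, 4.74 and 4.94 at day 5, 4.48 and 4.82 at day 14 and 4.77 and 4.58 at day 28. The mean went from 4.88 ± 0.13 (SD, n = 3) to 4.67 ± 0.13 (SD, n = 2), a difference of -0.21 on the log2 scale, with overlap between day 5 replicate 2 and day 28 replicate 1. The difference was -0.21 on TMM-scaled CPM as well. These 4 genes include Actb, which was itself called lower at day 28 (log2 fold change -0.63). A fall of Gapdh relative to them is therefore measured against a mean that holds a falling gene. Day 5 and day 28 means were 8.17 and 7.21 FPKM for Ankrd27, 6.2 and 6.31 FPKM for Tbp and 5.03 and 4.69 FPKM for Rictor. Gapdh was not compared with these genes alone.

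The sorted cells carried macrophage markers in every library. The marker lists are small, and 4.78% of all genes tested passed in edgeR at day 14 and 15.2% at day 28. An unadjusted p under 0.05 in edgeR was seen for 24% and 31.5% of all genes tested, and DESeq2 called 10.6% and 19.3%. The most abundant marker of a list is given by its mean over the 7 libraries. The 10 markers summed to 19475.6, 20142.9 and 17562.6 FPKM at day 5, 19518.9 and 23759.3 FPKM at day 14 and 19735.6 and 19356.0 FPKM at day 28, with Lyz2 most abundant. Without it, the other 9 summed to 7645.3, 7025.4 and 6887.3 FPKM at day 5, 6701.5 and 5382.8 FPKM at day 14 and 4750.6 and 5493.5 FPKM at day 28, all later libraries below all day 5 libraries. Of the 10 markers, 1 was lower at day 14 (Cd14; median 0.05, 4 at an unadjusted p under 0.05, 2 with DESeq2) and 2 at day 28 (Emr1, which encodes F4/80, and Cd14; median -0.32, 5 at an unadjusted p under 0.05, 4 with DESeq2). The 8 neutrophil markers summed to 337.9, 348.8 and 361.6 FPKM at day 5, 600.0 and 585.9 FPKM at day 14 and 293.8 and 153.6 FPKM at day 28, with S100a9 most abundant. They were highest at day 14 and lowest at day 28, and 1 of 6 tested (Mmp8) was lower at day 14 and 2 at day 28. The list median at day 14 was 0.81, with 5 of the 6 at an unadjusted p under 0.05 (S100a8, S100a9, Retnlg and Cxcr2 higher and Mmp8 lower). Between days 14 and 28 it was -1.12, with 0 passing in edgeR, 6 at an unadjusted p under 0.05 and 4 called by DESeq2. The shares of all genes tested between these days were 0.0622%, 12.2% and 2.58% in that order. The 8 Schwann cell markers summed to 295.0, 275.8 and 242.7 FPKM at day 5, 280.9 and 159.6 FPKM at day 14 and 153.6 and 156.9 FPKM at day 28. Most of this sum was Pmp22, which other cells express too. Of 4 Schwann cell markers tested, 0 passed in edgeR at day 14 (1 at an unadjusted p under 0.05, 0 with DESeq2), and at day 28 1 was lower (Pmp22) and 1 higher (Mbp). The 7 fibroblast markers summed to 74.1, 35.6 and 28.8 FPKM at day 5, 223.1 and 81.2 FPKM at day 14 and 35.6 and 57.0 FPKM at day 28, with Col1a1 most abundant. They were highest in the day 14 libraries, where 1 of 7 (Col1a2) was higher than at day 5 (median 1.72, 6 at an unadjusted p under 0.05, 2 with DESeq2), and 0 passed in edgeR at day 28 (0 at an unadjusted p under 0.05, 0 with DESeq2). The 6 endothelial markers summed to 27.4, 15.4 and 21.1 FPKM at day 5, 14.2 and 8.06 FPKM at day 14 and 8.26 and 5.15 FPKM at day 28, with Kdr most abundant. All later libraries were below day 5, and of 5 tested 0 passed in edgeR at day 14 (3 at an unadjusted p under 0.05, 1 with DESeq2), and at day 28 2 were lower (Kdr and Pecam1) and 1 higher (Tek). The 6 erythroid markers summed to 43.6, 49.1 and 32.9 FPKM at day 5, 59.6 and 8.28 FPKM at day 14 and 3.86 and 12.5 FPKM at day 28. Hba-a1 made up most of the sum except in day 28 replicate 1, where it was at 0.0449 FPKM and Hba-a2 at 2.17 FPKM. Day 28 lay below day 5, and of 3 tested 0 passed in edgeR at day 14 (0 at an unadjusted p under 0.05, 0 with DESeq2) and 1 (Alas2) was lower at day 28 in edgeR but not in DESeq2. The 6 T and B cell markers summed to at most 1.07 FPKM and the 7 skeletal muscle markers to at most 1.73 FPKM in any library, with Cd3d and Mylpf most abundant and with Myl1 at or under 3 fragments throughout. Of the T and B cell markers 0 were high enough to be tested, and of 3 muscle markers tested 0 passed in edgeR at either later day (0 at day 14 and 1 at day 28 at an unadjusted p under 0.05, 0 and 1 with DESeq2). The 9 cell cycle markers, mostly Pcna, summed to 172.3 to 210.6 FPKM, with 5 of 9 higher at day 14 than at day 5 (among them Mcm5, Ccna2 and Ccnb1) and 2 higher at day 28 (Ccna2 and Top2a). The part of these cells in the differences of the glycolytic and pentose phosphate genes was not tested.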

How the data were processed

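Macrophage RNASeq libraries from days 5 (n = 3), 14 (n = 2) and 28 (n = 2) were analysed. Per the submitters' processing notes, the authors used cutadapt 1.8, TopHat2 2.0.13 and Cuffdiff 2.2.1 with mm10. The authors deposited expected counts, the fragments that cuffdiff estimated for each gene. The deposited scaled signal is this number multiplied by 1 factor per library, and was used as an alternative library scaling. The deposited FPKM values divide the scaled fragments by transcript length and library size. Handling of reads that map to several places and of strand was not stated.

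Counts were rounded and fitted in R 4.3.3 with the quasi-likelihood F test of edgeR 4.0.16, after its expression filter (grouped by time point) and TMM normalization. A single fit of the 7 libraries had time point as its factor, and p-values were adjusted by Benjamini-Hochberg over the 12858 genes tested in each comparison, with a threshold of 0.05. SE values were derived from the F statistic. The fits were tested on simulated data. Summaries and plots were made with Python 3.11.15, pandas 2.3.3, numpy 2.4.6 and matplotlib 3.10.9. Coordinates come from GENCODE on GRCm38.

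Values in every library are given for genes that passed in at least 1 comparison and for the most abundant gene of each role. From each of 19 lists of related or marker genes, up to 3 genes with the lowest adjusted p were named, with Pkm, Hif1a, Pgls, Shpk, Mpc1, Mpc2, Txnip and the reference genes in any case. Pgd, Tkt, Slc2a3 and other genes beyond this rule were named after their values were seen. The members and lists were chosen with earlier results of these data known. Alternatives were DESeq2 1.42.0, RLE size factors, the scaling by cuffdiff, no expression filter, limma 3.58.1 on log2 FPKM with 1 or 0.1 added, fits of the 2 time points compared, the replicate number as a block, leaving out each library, and a threshold of 0.01. A crossed pairing for the block was added after the data were seen. The NanoString and other experiments of the study were not analysed here.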

Additional observations from a re-analysis of the deposited data

How the results depend on the processing

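Of the 14 genes that passed, 4 did so in both comparisons with day 5, which gives 18 results by gene and comparison. Each was recomputed under 16 alternatives, 288 values in all, and all 288 kept their direction while 199 passed the threshold of 0.05. The 2 other library scalings moved the median log2 fold change of all genes by at most 0.016, so they could hardly turn a sign. In day 28 against day 5, Slc16a3, Gys1, Ldhb and Tpi1 passed under all 16. The number of genes passing in that comparison was 14 (15.2% of all genes tested passed). It was 19 with DESeq2 (all 14 among them, 19.3% of all genes), 14 with RLE size factors or the scaling by cuffdiff (13 shared, with Gapdh gained and Fbp1 lost, 15.1% of all genes in both), 19 with no expression filter (14.3%), 13 and 14 with limma on log2 FPKM with 1 or 0.1 added (14.0% and 13.6%), and 20 in a fit of the 2 time points alone (22.1%). At an adjusted p under 0.01 it was 5 (4.64% of all genes). Leaving out each library in turn gave 4 to 20 (3.4% to 20.6% of all genes).

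In day 14 against day 5 the number was 4 (4.78% of all genes tested), and it was 15 with DESeq2 (10.6%), 13 with no expression filter (8.26%), 2 with limma on log2(FPKM + 1) (1.96%), 2 in a fit of the 2 time points alone (2.52%) and 0 at an adjusted p under 0.01 (0.187%). Leaving out each library in turn gave 0 to 10 (0.407% to 13% of all genes). In day 28 against day 14 it was 0 in edgeR, and leaving out each library in turn gave 0 to 3. Where days 14 or 28 were left with 1 library, that library was assumed to vary like the other groups. The causes of these shifts were not tested.

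With a block for the replicate number, 0 genes passed in day 14 against day 5 and 6 in day 28 against day 5 (0.0467% and 5.72% of all genes). With the crossed pairing, in which the numbers of the day 28 libraries are swapped and which was chosen after the data were seen, these numbers were 1 and 11 (2.78% and 12.3% of all genes). In day 28 against day 14, 0 passed under either pairing. The labels give no tie between same-numbered libraries of different days. Between same-numbered libraries, deviations from the day mean correlated across genes, which are not independent replicates, at 0.175 (replicate 1) and 0.045 (replicate 2) between days 5 and 14, at 0.084 and 0.025 between days 5 and 28 and at -0.054 between days 14 and 28 on FPKM values (7613 genes). On CPM values (9266 genes) they were 0.403 and 0.097, -0.047 and 0.005, and -0.146. Differently numbered libraries gave CPM values from -0.403 (day 5 replicate 1 with day 14 replicate 2) to 0.335 (day 5 replicate 3 with day 14 replicate 2). A day with 2 libraries has equal and opposite deviations, so the values of its replicates are tied to each other.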
